A study of Mus musculus with 6 samples.

Results

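The phagocyte NADPH oxidase and the superoxide dismutases are represented here by 8 genes, chosen by symbol: *Cybb*, *Cyba*, *Ncf1*, *Ncf4*, *Rac1*, *Rac2*, *Sod1* and *Sod2*. All 8 were found among the 23282 gene entries of each table, and all 8 were among the 11092 entries tested. They were measured in RAW 264.7, a mouse macrophage cell line that can be driven to form osteoclasts, the multinucleated cells that resorb bone. There were 3 samples labelled CPN and 3 labelled control, all at day 5 of osteoclast differentiation, and no genotype is given. The series title names a chaperonin of 60 kDa, and its source, dose and time of addition are not given in the labels used here. All 6 samples come from 1 line. Separate cultures are not stated in the labels, and the p-values below therefore refer to sample-to-sample spread that could be technical in origin. The comparison addresses how expression of these genes differed between CPN and control cells.

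The oxidase of phagocytes moves electrons from NADPH across a membrane onto oxygen and so makes superoxide. Its catalytic core is a membrane pair, gp91phox (*Cybb*) and p22phox (*Cyba*). In a resting cell the cytosolic subunits, among them p47phox (*Ncf1*) and p40phox (*Ncf4*), are held apart from it, and they join it on activation together with the GTPase Rac (*Rac1* or *Rac2*). Superoxide dismutases turn superoxide into hydrogen peroxide and oxygen, the copper-zinc enzyme (*Sod1*) mainly in the cytosol and the manganese enzyme (*Sod2*) in mitochondria. In osteoclasts and their precursors, reactive oxygen species are known to act in signalling from the receptor RANK.

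*Cybb* and *Sod2* were higher in CPN cells, by 2.95-fold and 1.97-fold, and the other 6 genes did not pass the test. The gene for the partner of *Cybb*, *Cyba*, and the gene for the cytosolic dismutase, *Sod1*, had fold changes whose intervals included no change. Thus 2 of 8 genes (25.0%) passed in edgeR's quasi-likelihood test, both higher, where 14.0% of all tested genes passed, 7.62% as higher and 6.39% as lower. With 8 genes, that share rests on 2 calls. No gene of the 8 passed as lower in edgeR, while 2 were lower at an unadjusted p under 0.05, 2 were lower in DESeq2 and 1 was lower in limma-voom. Of all 11092 tested genes, 2917 had an unadjusted p under 0.05 in either direction. In DESeq2 903 of them were lower, and in limma-voom 738. The median log2 fold change of the 8 was -0.06, beside -0.0079 for all tested genes. The groups stood apart without overlap for 3 of the 8 (37.5%), where 32.6% of all tested genes did not overlap.

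The sequences before the starts of *Cybb* and *Sod2* are shown because these are the genes that differed, and that of *Sod1* because it encodes the other intracellular dismutase. RefSeq promoters on GRCm38.p6 were matched for 5 of the 8 genes, with *Ncf4*, *Rac1* and *Rac2* not matched. Each run is the 250 bases before the annotated start, at chrX:9469325-9469574 on the minus strand for *Cybb*, chr17:13007589-13007838 on the plus strand for *Sod2* and chr16:90220512-90220761 on the plus strand for *Sod1*. These RefSeq starts differ from the outer gene bounds of the GENCODE annotation given further on, which take in all of a gene's transcripts, and all 3 runs reach inside those bounds. Capitals mark matches on either strand to 6 motifs. These were the PU.1 core GAGGAA, an Ets-IRF composite, the AP-1 pattern TGANTCA, the NF-kB consensus, the antioxidant response element core TGACNNNGC and the GC box GGGCGG. The AP-1 pattern lets any base stand at N and is looser than the AP-1 consensus, which has C or G there.
Cybb: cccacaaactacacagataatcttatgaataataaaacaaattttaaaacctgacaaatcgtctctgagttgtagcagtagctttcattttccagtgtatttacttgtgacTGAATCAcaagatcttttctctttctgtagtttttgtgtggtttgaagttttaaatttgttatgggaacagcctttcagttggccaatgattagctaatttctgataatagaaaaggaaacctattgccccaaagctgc
Sod2: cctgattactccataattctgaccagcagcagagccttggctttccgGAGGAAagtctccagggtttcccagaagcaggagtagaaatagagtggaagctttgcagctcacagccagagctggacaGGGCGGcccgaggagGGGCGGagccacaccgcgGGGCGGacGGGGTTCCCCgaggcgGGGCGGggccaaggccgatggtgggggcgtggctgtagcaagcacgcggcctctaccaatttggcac
Sod1: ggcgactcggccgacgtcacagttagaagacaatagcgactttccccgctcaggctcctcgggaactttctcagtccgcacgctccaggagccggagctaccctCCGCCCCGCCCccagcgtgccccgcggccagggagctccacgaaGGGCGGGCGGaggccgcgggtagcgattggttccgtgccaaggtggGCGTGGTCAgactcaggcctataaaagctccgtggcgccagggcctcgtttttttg
The *Cybb* run held 1 match to the loose AP-1 pattern, at 139 to 133 bases before the start. It read TGAATCA, with A at the centre, and so did not match the AP-1 consensus. The *Cybb* run held no GC box, and its GC content was 34.0%. The *Sod2* run held 1 place that matched the NF-kB consensus on both strands, at 83 to 74 bases before the start, with 4 GC boxes and 1 PU.1 core, and 63.6% GC. The *Sod1* run held 1 match to the antioxidant response element core and 4 GC boxes, some of which overlap each other, and 66.4% GC. Of 32851 promoters in the table, 6.75% held the AP-1 letters, 7.25% the NF-kB consensus, 10.2% the antioxidant core, 32.7% the GC box, 23.3% the PU.1 core and 2.3% the Ets-IRF composite, and the median GC content was 52.4%. These matches are descriptions, and no factor was measured at these sites.

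Values below are counts per 1000000 counts (CPM), scaled by TMM, a method that sets libraries to a common scale from the bulk of their genes. Each of the 8 genes had between 876 and 7496 counts in every library, so that counting error alone was between 1.16% and 3.38% of a value. Library totals lay between 7957228 and 9713938 counts. Libraries differed in how many low genes were at 0. Among 707 entries with a mean of 6 to 12 counts, 14.0% were at 0 in CPN 1 and 23.8% in control 3, against 36.9% to 41.2% in the other 4 libraries. The calls of *Cybb*, *Sod2*, *Pak1* and *Gpx1* are therefore also given without both of these libraries, and those of the lists as counts.

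In the membrane core, *Cybb* (chromosome X, 9435252 to 9487771, GENCODE M21 on GRCm38, minus strand, protein-coding) had 622, 490.2 and 456 CPM in CPN 1 to 3, against 103, 219 and 209.7 CPM in control 1 to 3. Every CPN library was above every control library, CPN 1 was the highest and control 1 the lowest. The means were 523 ± 87.6 CPM in CPN and 177 ± 64.2 CPM in control (SD, n = 3 each). The log2 fold change was 1.56 ± 0.25 (SE, edgeR adjusted p = 0.00127), with a 95% interval of 2.01-fold to 4.32-fold. Intervals given here are not adjusted for the number of genes tested. By fold change *Cybb* stood in place 600 from the top of 11092 tested genes, and by p-value in place 333. It passed under all 16 other settings, and without both CPN 1 and control 3 its log2 fold change was 1.56 (edgeR adjusted p = 0.0353).

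*Cyba*, whose product p22phox stabilises gp91phox in the membrane (chromosome 8, 122424776 to 122432930, minus strand), did not pass. It had 262, 262 and 290.2 CPM in CPN 1 to 3, against 292, 324 and 281 CPM in control 1 to 3, and the groups overlapped. Its log2 fold change was -0.14 ± 0.16 (SE, edgeR adjusted p = 0.64), and the 95% interval reached from 0.719-fold to 1.15-fold. Since both subunits were read in the same libraries, their ratio does not depend on how libraries are scaled. The *Cybb* count was 2.37, 1.87 and 1.57 times the *Cyba* count in CPN 1 to 3, against 0.354, 0.676 and 0.745 times in control 1 to 3. Counts of separate genes are not levels per length, so only the shift of the ratio between groups is read. That shift was 3.39-fold, with no overlap (two-sided exact permutation test, p = 0.1, the smallest that 3 against 3 can give; 0.133 after Benjamini-Hochberg adjustment over 4 ratios).

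**Figure D1:**
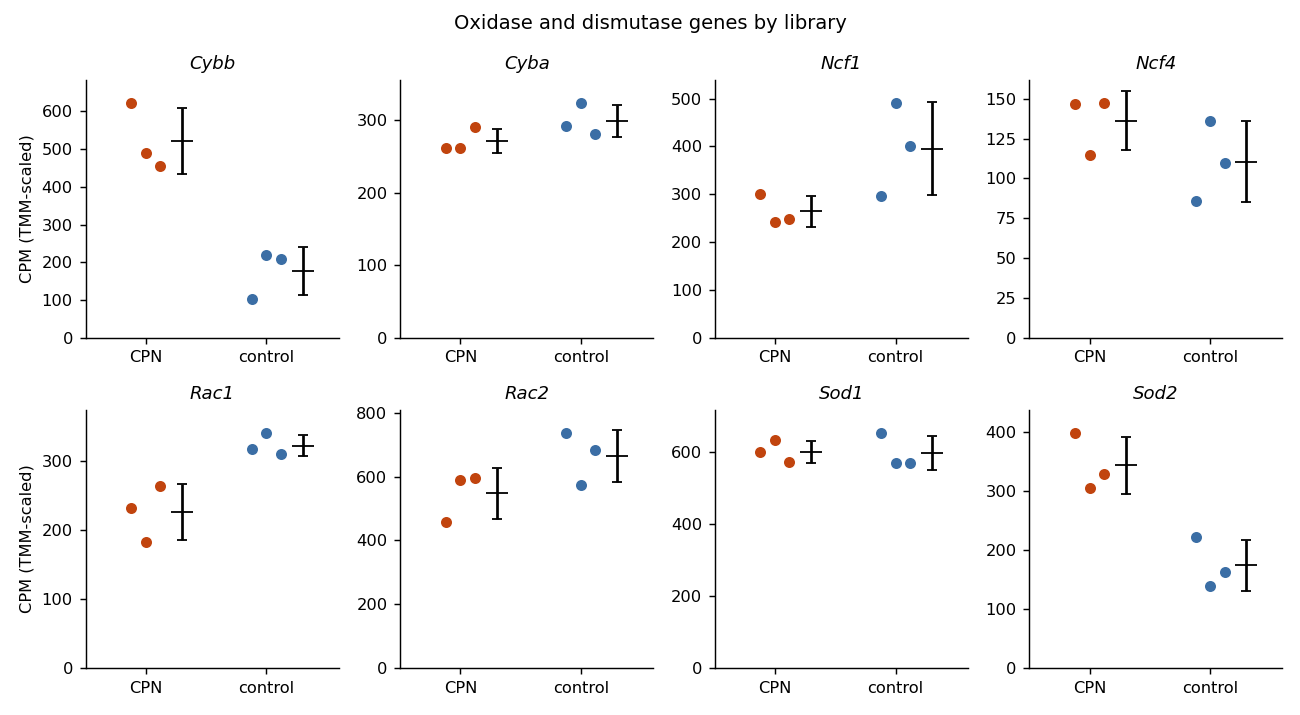
CPM (TMM-scaled, axis from 0) of the 8 genes in each library, CPN left of control, with points for libraries 1 to 3 and a bar for the mean ± SD. Cybb and Sod2 have all 3 CPN values above all 3 control values, and Rac1 has all 3 CPN values below them.

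Among the cytosolic subunits, *Ncf1*, which carries the phosphorylation sites that release the complex for assembly (chromosome 5, 134220053 to 134229625, minus strand), had 301, 243 and 249 CPM in CPN 1 to 3, against 295, 491 and 400.4 CPM in control 1 to 3. CPN 1 lay just above control 1, so that the groups overlapped, and the control libraries were the more spread. The log2 fold change was -0.58 ± 0.20 (SE) and did not pass (edgeR adjusted p = 0.0704). It passed as lower with library totals alone, in DESeq2, with no low-count filter and without control 1, where the log2 fold change was -0.75 (edgeR adjusted p = 0.0308). With library totals alone the median of all genes shifts to -0.13, and *Ncf1* was then at -0.69 (edgeR adjusted p = 0.0353). Without control 2, the library with the highest *Ncf1* level, the log2 fold change was -0.38 (edgeR adjusted p = 0.17). *Ncf1* overlaps exons of *Gtf2ird2* on the opposite strand, which had 702 counts in all against 16898 for *Ncf1*. The log2 fold change of *Gtf2ird2* was -0.54 (adjusted p = 0.51 in edgeR).

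*Ncf4*, whose product binds a phosphoinositide of phagosome membranes (chromosome 15, 78244801 to 78262580, plus strand), had 147, 115 and 147 CPM in CPN 1 to 3, against 86.0, 136 and 109.5 CPM in control 1 to 3. The groups overlapped, and the log2 fold change of 0.30 ± 0.21 did not pass (SE, edgeR adjusted p = 0.413). The cytosolic pair shifted against each other within libraries. The *Ncf1* count was 2.05, 2.11 and 1.69 times the *Ncf4* count in CPN 1 to 3, against 3.43, 3.60 and 3.65 times in control 1 to 3. The ratio was 0.546-fold in CPN relative to control, and its 3 control values lay close together and apart from the 3 CPN values (two-sided exact permutation test, p = 0.1, the smallest possible; 0.133 after adjustment over 4 ratios). The ratio difference was between -0.93 and -0.77 on the log2 scale when any 1 library was left out. Here 2 genes that did not pass on their own had a ratio whose groups did not overlap, in a design too small for this test to pass 0.05.

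The Rac GTPases are the switch of the assembled oxidase, and *Rac2* is the form typical of blood cells. *Rac1* (chromosome 5, 143503634 to 143528036, minus strand) had 233, 183 and 264 CPM in CPN 1 to 3, against 317, 340.2 and 310.3 CPM in control 1 to 3. All CPN libraries were below all control libraries. The log2 fold change was -0.51 ± 0.17 (SE) and did not pass (edgeR adjusted p = 0.0734). It passed as lower with library totals alone (-0.62), in DESeq2 (-0.51) and in limma-voom (-0.52), with adjusted p of 0.0375, 0.0336 and 0.0414. The last 300 bases of both coding transcripts of *Rac1* also lie in transcripts of *Daglb* on the opposite strand. *Daglb* had 1160 counts against 14192 for *Rac1* and fell by 1.44 on the log2 scale (edgeR adjusted p = 0.00767). Reads in the shared stretch cannot be told apart here, since the use of strand is not given in the sources used here.

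*Rac2* (chromosome 15, 78559167 to 78572783, minus strand) had 456, 590.4 and 597 CPM in CPN 1 to 3, against 735, 573 and 685 CPM in control 1 to 3, with overlap between the groups. Its log2 fold change of -0.28 ± 0.17 did not pass (SE, edgeR adjusted p = 0.331). The *Rac2* count was 1.96, 3.22 and 2.26 times the *Rac1* count in CPN 1 to 3, against 2.32, 1.69 and 2.21 times in control 1 to 3. These ratios overlapped (two-sided exact permutation test, p = 0.5, also after adjustment over 4 ratios), so a shift between the GTPases was not detectable beyond the spread between libraries.

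**Figure D2:**
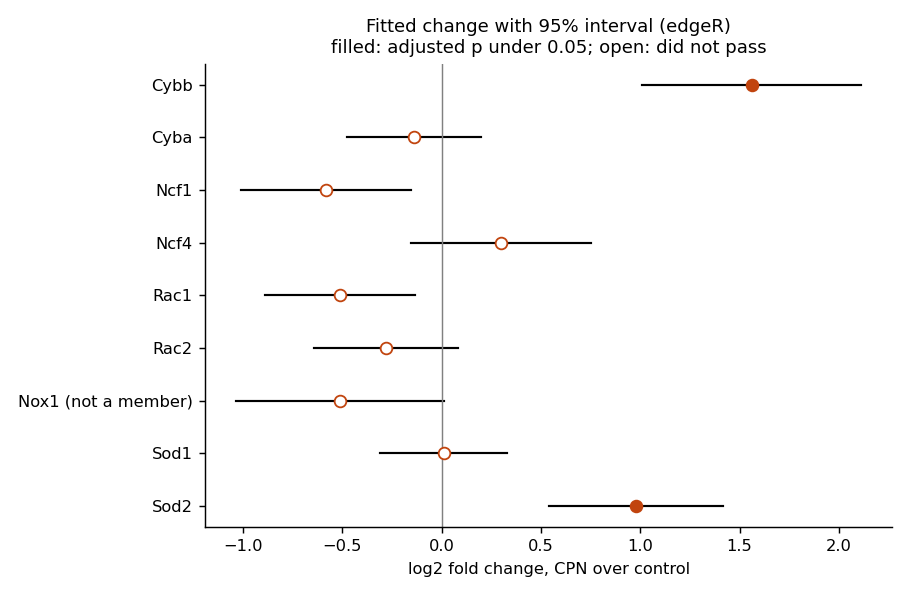
Log2 fold change of CPN over control (horizontal axis) with its 95% interval from edgeR for the 8 genes and for Nox1, filled where the adjusted p is under 0.05. Cybb at 1.56 and Sod2 at 0.98 are filled, and Sod1 at 0.010 lies on the line of no change.

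Of the dismutase genes, the mitochondrial *Sod2* rose and the cytosolic *Sod1* did not pass. *Sod2* (chromosome 17, 13006846 to 13040063, plus strand) had 398, 305 and 329 CPM in CPN 1 to 3, against 223, 138 and 163 CPM in control 1 to 3. All CPN libraries were above all control libraries, and CPN 1 was again the highest. The means were 344 ± 48.4 CPM in CPN and 175 ± 43.3 CPM in control (SD, n = 3 each), and the log2 fold change was 0.98 ± 0.20 (SE, edgeR adjusted p = 0.00573), with a 95% interval of 1.46-fold to 2.67-fold. It passed whichever single library was left out, with an adjusted p of up to 0.0411 in edgeR, but not without both CPN 1 and control 3 (0.81, adjusted p = 0.142) and not against a fold of 1.5 (adjusted p = 0.111). The end of 1 of the 2 coding transcripts of *Sod2* matches stretches of 7 other genes at 95% identity or more over at least 150 bases, so reads from that end could be placed in more than 1 gene.

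*Sod1* (chromosome 16, 90220754 to 90226329, plus strand) had 598, 631 and 569.8 CPM in CPN 1 to 3, against 650.4, 569 and 567 CPM in control 1 to 3. The groups overlapped throughout. The log2 fold change was 0.010 ± 0.15 (SE, edgeR adjusted p = 0.98), and the 95% interval reached from 0.808-fold to 1.26-fold. The end of its coding transcript also matches the annotated locus *Gm8566* over 228 bases at 97.8% identity. Within libraries, the *Sod2* count was 0.666, 0.484 and 0.577 times the *Sod1* count in CPN 1 to 3, against 0.342, 0.244 and 0.287 times in control 1 to 3. This 1.98-fold shift showed no overlap between groups (two-sided exact permutation test, p = 0.1, the smallest possible; 0.133 after adjustment over 4 ratios).

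**Figure D3:**
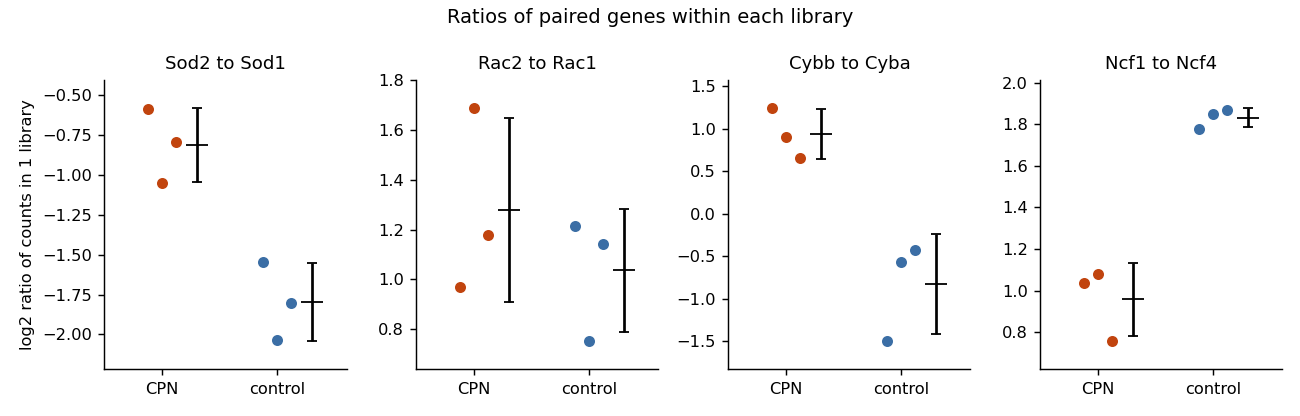
Log2 ratio of the counts of paired genes within each library (vertical axes differ between panels and do not start at 0), CPN left of control, with the mean ± SD of 3 libraries. The groups separate for Sod2 to Sod1, Cybb to Cyba and Ncf1 to Ncf4, and overlap for Rac2 to Rac1.

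Other genes of the oxidase family gave no call. Of 10 entries analysed, 2 were tested and 0 passed in edgeR, with 0 at an unadjusted p under 0.05 and 0 in DESeq2 or limma-voom. *Nox1*, the catalytic subunit best known from colon, had 34.3, 27.4 and 28.2 CPM in CPN against 39.9, 38.9 and 49.1 CPM in control (edgeR adjusted p = 0.204), with no overlap between groups. It overlaps exons of *Cstf2* on the opposite strand, which had 4642 counts against 1874 for *Nox1*. The log2 fold changes were -0.51 for *Nox1* and -0.52 for *Cstf2* (adjusted p = 0.0859 in edgeR for *Cstf2*), and the end of 1 of 5 coding *Nox1* transcripts is 100% identical to *Cstf2* over 300 bases, so reads there cannot be told apart. *Noxo1*, an organiser subunit for *Nox1*, had at most 2.45 CPM in any library. *Nox4*, *Noxa1*, *Duox1*, *Duox2* and *Duoxa2* were at 0 in all 6 libraries, *Nox3* had 2 counts in CPN 1 and *Duoxa1* had 4 in control 2. *Rac3* had 2, 4 and 7 counts in CPN 1 to 3 and 0 in each control library, too few to test. *Cybc1* was not analysed here.

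Among 20 tested regulators of Rac and related small GTPases, 1 rose and 2 fell, so that 3 of 20 passed beside 14.0% of all genes, with a median log2 fold change of -0.14. *Rap1b*, a GTPase of cell adhesion whose close relative Rap1a copurifies with the membrane core, rose to 334 ± 46.9 CPM in CPN, against 200.3 ± 9.43 CPM in control (edgeR adjusted p = 0.0104). *Prex1*, an exchange factor that loads Rac with GTP in neutrophils, fell to 34.9 ± 4.91 CPM in CPN, against 75.5 ± 24.1 CPM in control (edgeR adjusted p = 0.0147). *Racgap1*, a GTPase-activating protein best known from cytokinesis, was 5.40-fold lower in CPN, at 12.9 ± 8.33 CPM against 69.9 ± 35.1 CPM in control (edgeR adjusted p = 0.00454). The exchange factor gene *Vav1* lay between 80.3 and 110.1 CPM in CPN, against 59.8 to 66.3 CPM in control, without overlap. It missed the threshold in edgeR (adjusted p = 0.0641) and passed in DESeq2 (adjusted p = 0.0375). *Dock1* and *Arhgap25* had log2 fold changes of -1.01 and -0.67 and did not pass in edgeR (adjusted p = 0.107 and 0.134). The call of *Rap1b* ended without control 3 (edgeR adjusted p = 0.0668), and that of *Prex1* without CPN 2, CPN 3, control 1 or control 3 (up to 0.0861).

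Of 16 tested genes for kinases, a kinase subunit and a phospholipase that act on the oxidase, 1 rose and 2 fell. That share of 18.8% was close to the 14.0% of all genes, and the median log2 fold change of the 16 was -0.14. *Pak1*, a kinase switched on by Rac, fell to 62.2, 56.1 and 59.8 CPM in CPN 1 to 3, against 158, 107 and 145 CPM in control 1 to 3 (log2 fold change -1.20 ± 0.20, SE, edgeR adjusted p = 0.00167). The *Pak1* call ended without both CPN 1 and control 3 (log2 fold change -1.19, edgeR adjusted p = 0.0550). *Pik3cd*, a leukocyte phosphoinositide 3-kinase, fell to 15.4, 28.7 and 27.8 CPM in CPN 1 to 3, against 68.3, 44.3 and 58.4 CPM in control 1 to 3 (edgeR adjusted p = 0.0117). *Pla2g4a*, the cytosolic phospholipase A2 that releases arachidonic acid, rose 1.90-fold to 184 ± 13.9 CPM in CPN, against 97.2 ± 25.1 CPM in control (edgeR adjusted p = 0.00923). *Mapk14*, which encodes p38 alpha, averaged 35.7 ± 4.51 CPM in CPN, against 57.1 ± 4.84 CPM in control (edgeR adjusted p = 0.0606), and it passed as lower in DESeq2 and with library totals alone. *Irak4* and *Pik3r5* had log2 fold changes of -0.61 and 0.39 and did not pass in edgeR (adjusted p = 0.202 and 0.239). The call of *Pla2g4a* ended without control 3 (edgeR adjusted p = 0.0614), and that of *Pik3cd* without control 1 or control 3 (up to 0.0558).

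Around the dismutases, 1 of 5 tested partner genes passed, beside 14.0% of all genes, and that share rests on 1 call. *Atox1*, a copper carrier of the cytosol, fell to 76.8, 86.4 and 102.7 CPM in CPN 1 to 3, against 192, 142 and 155 CPM in control 1 to 3 (log2 fold change -0.88 ± 0.20, SE, edgeR adjusted p = 0.0097), and this call ended without CPN 2 or control 1 (up to 0.0537). *Ccs*, the chaperone that delivers copper to *Sod1*, averaged 25.4 ± 2.38 CPM in CPN, against 24.7 ± 6.09 CPM in control (edgeR adjusted p = 0.957). The copper importer gene *Slc31a1* and *Slc25a39*, a mitochondrial carrier, also did not pass in edgeR (adjusted p = 0.667 and 0.891). *Slc39a8*, a zinc and manganese importer, had 3.24, 10.6 and 5.58 CPM in CPN 1 to 3, against 0, 1.80 and 0.234 CPM in control 1 to 3. It did not pass (edgeR adjusted p = 0.105), but did without control 2 (log2 fold change 5.72, edgeR adjusted p = 0.00952), with no low-count filter (adjusted p = 0.0404) and in DESeq2 (adjusted p = 0.0186). No partner rose in edgeR, while 1 was higher at an unadjusted p under 0.05, 1 in DESeq2 and 0 in limma-voom. Among all 11092 tested genes, 2917 had an unadjusted p under 0.05 in either direction, 1052 were higher in DESeq2 and 936 in limma-voom. *Sod3*, the secreted dismutase, was at 0 in every library.

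Of 16 tested genes that remove hydrogen peroxide, the product of both dismutases, or serve its removal, 6 rose and 2 fell (50.0%, beside 14.0% of all genes). Their median log2 fold change was 0.46, beside -0.0079 for all genes. The list was chosen with earlier results of these data known, so its share is only a description. *Srxn1*, which restores overoxidised peroxiredoxins, rose 3.43-fold to 85.8, 129.7 and 119 CPM in CPN 1 to 3, against 30.8, 42.8 and 23.8 CPM in control 1 to 3 (edgeR adjusted p = 0.000594). *Cat*, encoding catalase, rose 3.30-fold, *Glrx*, encoding glutaredoxin, 3.21-fold, and the peroxiredoxin genes *Prdx5* and *Prdx1* 2.84-fold and 2.49-fold, each with no overlap between groups (edgeR adjusted p between 0.000268 and 0.0031). *Gpx1*, the abundant cytosolic glutathione peroxidase, moved the other way and fell to 522, 451 and 551 CPM in CPN 1 to 3, against 851, 812 and 921 CPM in control 1 to 3 (log2 fold change -0.76 ± 0.15, SE, edgeR adjusted p = 0.00454). The *Gpx1* call ended without both CPN 1 and control 3 (log2 fold change -0.73, edgeR adjusted p = 0.0906). *Prdx6* (log2 fold change 0.81) and *Prdx2* (-0.76) also passed, and both were named after their values were seen. The call of *Prdx6* ended without CPN 1, CPN 2 or control 3 (up to 0.0647 in edgeR), while *Prdx2* lost its call without CPN 2, CPN 3, control 1 or control 3 (up to 0.129). *Prdx1* and *Prdx2* have near-identical copies elsewhere in the annotation, and *Prdx2* also overlaps exons of *Junb* on the opposite strand, so their counts are uncertain. *Prdx5* overlaps exons of *Trmt112*, which had 9871 counts against 5431 for *Prdx5*.

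**Figure D4:**
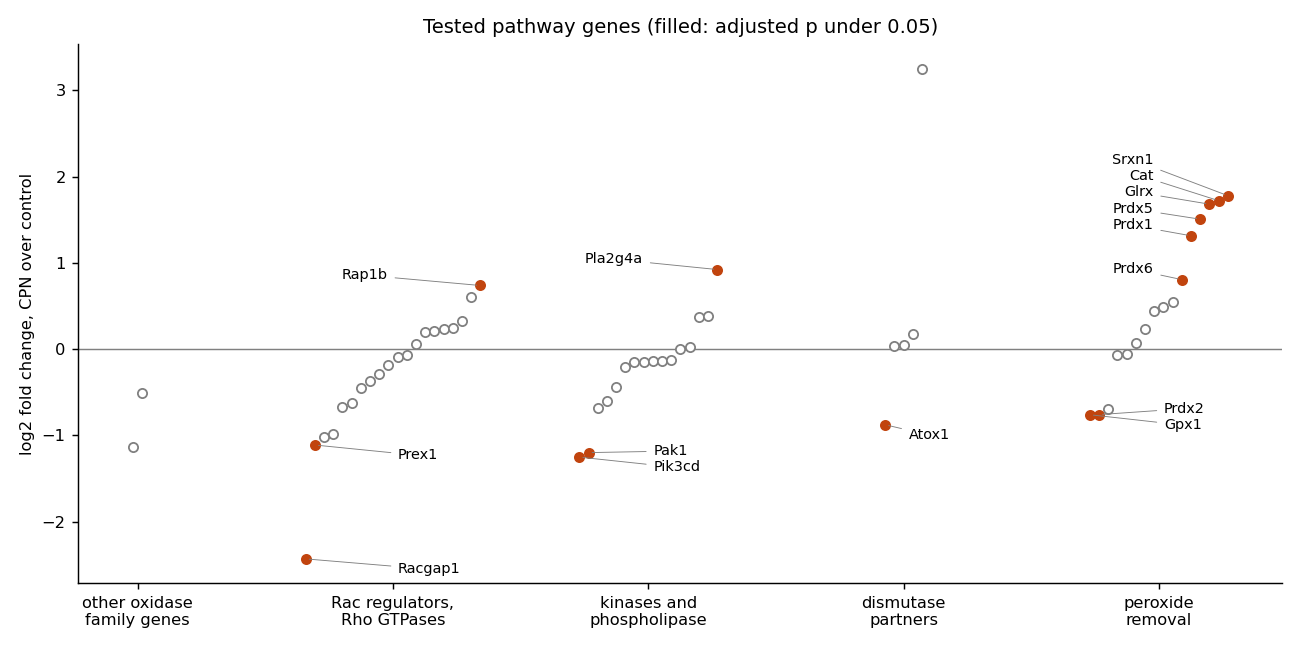
Log2 fold change of CPN over control for every tested gene of 5 lists, filled and named where the edgeR adjusted p is under 0.05. The peroxide removal list holds 6 filled points above 0 and 2 below, and the Rac regulator and kinase lists hold 1 above and 2 below each.

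Profiles over the 6 libraries were the log2 of CPM after a small constant was added, which shrinks differences of low genes. Each profile was centred on its own mean. Among 8159 named genes with a mean of at least 10 CPM, those most like *Cybb* and *Sod2* were found by the root mean square difference between profiles. For *Cybb* they were *Phf11d* (0.17), *Stc2*, which encodes a secreted glycoprotein (0.17), and *Slc41a3* (0.20), the last of which did not pass in edgeR (adjusted p = 0.0547). For *Sod2* they were *Srpr*, encoding a subunit of the signal recognition particle receptor (0.0693), *Tma16* (0.10) and *Nktr* (0.10). The genes close to *Sod2* had higher CPN values, at 120.1 ± 8.44 CPM against 62.1 ± 16.3 CPM in control for *Srpr*, 68.9 ± 5.75 CPM against 33.3 ± 6.39 CPM for *Tma16* and 274 ± 42.8 CPM against 149 ± 26.2 CPM for *Nktr*. *Phf11d*, *Srpr* and *Nktr* share sequence at a transcript end with other annotated genes. These likenesses describe 6 libraries in 2 groups and were not tested.

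Phagocyte oxidase genes are also typical of granulocytes, so markers of other cells were read in the same libraries. The summed level of 9 granulocyte markers was 21.6 to 39.0 CPM in CPN and 1.64 to 2.55 CPM in control. Most of the CPN sum was *S100a8*, while *Elane*, *Camp* and *Ngp* were at 0 in every library. *S100a9* had 1 count, in CPN 3, and *Mpo*, *Prtn3* and *Ltf* had at most 6 counts in any library. *Cxcr2* was higher in CPN without overlap but did not pass (edgeR adjusted p = 0.417). This sum therefore does not show a shift of granulocyte markers as a set. The summed level of 8 stromal markers was 12.2 to 20.4 CPM in CPN and 0 to 6.23 CPM in control. *Dcn* alone gave 11.3, 7.73 and 12.2 CPM of it in CPN 1 to 3 and was at 0 in every control library. *Lum* gave 8.25 CPM in CPN 2 and was at 0 in CPN 3 and in every control library. The groups overlapped for *Col1a1* and *Col3a1*, so the sum does not show a shift of stromal markers as a set. Lymphocyte markers were at 0 in CPN and at most 0.785 CPM in control. Macrophage markers summed to between 2569.9 and 2909 CPM in CPN and between 1759 and 2353 CPM in control. Of these, 4 of 7 tested rose (*Adgre1*, *Itgam*, *Cd14* and *Fcgr1*). *Cd68* and *Csf1r* did not pass and had lower means in CPN, at 740 against 845 CPM and 481 against 629 CPM in control. *Lyz2* did not pass either, with a mean of 737 CPM in CPN against 441 CPM in control. Osteoclast markers summed to between 1845 and 2441 CPM in CPN and between 4403 and 4653 CPM in control, with 6 of 8 tested lower and *Mmp9* higher. The part of these shifts in the levels of *Cybb* and *Sod2* was not tested. In bulk RNA, fewer cells of a type and less RNA per cell cannot be told apart.

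**Figure D5:**
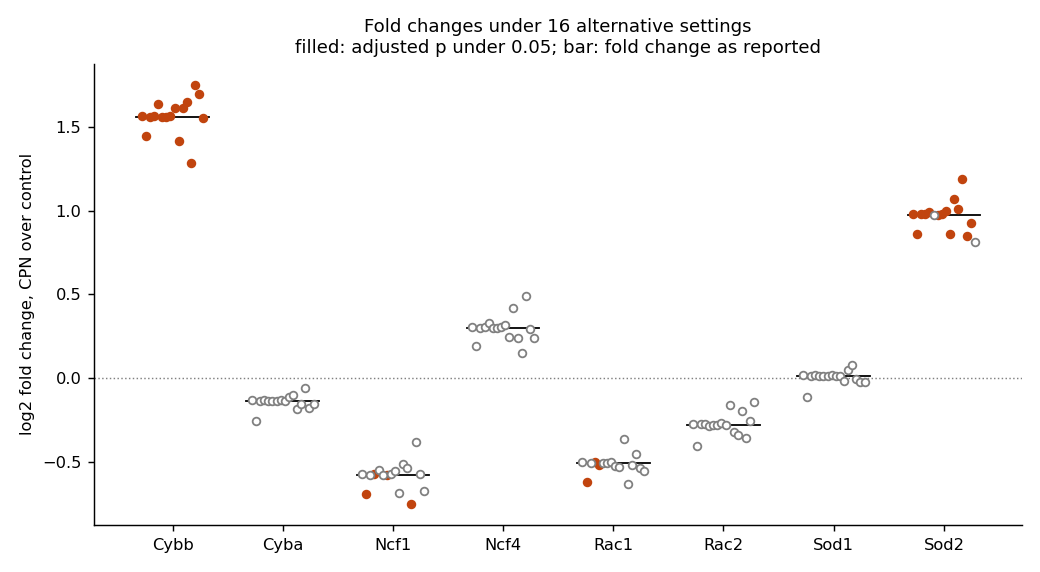
Log2 fold change of CPN over control for the 8 genes under each of 16 other settings (points, filled where the adjusted p is under 0.05), with the reported value as a bar. Cybb stays between 1.29 and 1.76 and is filled throughout, Sod2 stays between 0.81 and 1.19, and Ncf1 and Rac1 stay below 0 with few filled points.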

How the data were processed

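Trizol RNA was used for Lexogen QuantSeq libraries, per the labels' protocols, a method that reads transcript ends. Each sample has 1 deposited table of gene counts. The submitters' processing notes name Bowtie2, bedtools and the build mm10, without versions or roles. The annotation, strand setting and treatment of multiply aligned reads were not given in the sources used here. Tests used edgeR 4.0.16 (R 4.3.3): TMM scaling, filterByExpr (minimum count 10, minimum total 15), the quasi-likelihood test of CPN against control, and Benjamini-Hochberg adjustment over 11092 entries at 0.05. Errors of log2 fold changes are SE, intervals use the t distribution of the fit, and other errors are SD over 3 samples. Ratios used counts plus 0.5 and an exact permutation test over 20 splits. The members and lists were chosen with earlier results of these data known. The text names all members, the other oxidase genes analysed (1 item is not reported here), the 6 tested genes of lowest p in each further list (fewer where a list is shorter) and the 3 nearest profiles of each member that passed. Alternatives were other scalings, filters and tests (DESeq2 1.42.0, limma 3.58.1), the replicate number as a block, and libraries left out. Gene positions are from GENCODE M21 and promoters from RefSeq, both on GRCm38, the assembly also named mm10. Transcript ends of 300 bases were searched for copies with BLAST. The code was tested on simulated counts.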

Additional observations from a re-analysis of the deposited data

How the results depend on the processing

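*Cybb* kept its call under all 16 alternatives, between 1.29 and 1.76 on the log2 scale when single libraries were left out. *Sod2* lay between 0.85 and 1.19 without single libraries and lost its call against a fold of 1.5 (0.98) and without both control 3 and CPN 1 (0.81), where 2 libraries a group remain. *Ncf1* passed as lower with library totals alone (-0.69), DESeq2 (-0.58) and no low-count filter (-0.58), and lay between -0.75 and -0.38 without single libraries. *Rac1* passed as lower with library totals alone (-0.62), DESeq2 (-0.51) and limma-voom (-0.52). *Sod1*, near no change, turned to -0.11 with library totals alone and -0.0223 without control 3 and CPN 1, and lay between -0.0242 and 0.0781 without single libraries. Among genes that had not passed, *Slc31a1* lay between -0.0228 and 0.295, *Slc25a39* between -0.0186 and 0.134 and *Ccs* between -0.108 and 0.232 without single libraries, and with library totals alone *Slc25a39* turned to -0.0691 and *Ccs* to -0.0863. The cause was not tested for these changes.

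Of all genes, 845 were higher and 709 lower. These became 424 and 273 against a fold of 1.5, and 273 and 173 without control 3 and CPN 1, and lay between 525 and 1131 higher and between 359 and 823 lower without single libraries. Without control 3 they were 525 and 359, without CPN 2 534 and 381, and lower calls were 467 without CPN 1 and 415 without control 1. Library totals alone moved the share of higher calls to 43.02% from 54.38%. Of the members, 1 was higher against a fold of 1.5 or without control 3 and CPN 1, and those lower were 2 with library totals alone or DESeq2, 1 with limma-voom or no filter, and 0 to 1 without single libraries. Against a fold of 1.5, the Rac list had 0 higher and 1 lower, the kinase list 0 and 1, and the partner and peroxide lists 0 lower. Without control 3 and CPN 1, the Rac list had 0 higher and 1 lower, the kinase list 0 and 0, and the partner and peroxide lists 0 lower. DESeq2 gave 2 higher Rac genes and 1 higher partner, and no filter gave 1 higher partner. Without single libraries, the Rac and kinase lists each had 0 to 1 higher and 1 to 2 lower, the partner list 0 to 1 in each direction, and the peroxide list 1 to 2 lower. All 4 ratios kept their direction when libraries were left out, and scaling cannot move them.

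No pairing of libraries by replicate number was seen: deviations of same-numbered libraries correlated at -0.07, 0.01 and 0.04. With so few libraries these values cannot settle whether same-numbered libraries were handled together, which the labels do not state. With the replicate block, 1326 genes passed in place of 1554, *Cybb* stood at 1.62 and *Sod2* at 0.998, and 1 peroxide gene was lower. Over the alternatives, the values of the other named genes stayed on their side of the threshold in 453 cases, counting genes that had not passed, lost a call in 56, gained one in 10 and changed sign in 6.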
